A study of Mus musculus with 12 samples.

Results

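The 38 genes described here encode enzymes and transporters of hepatic fatty acid breakdown, together with a few regulators of the same fuel switch. They were listed by name and function from the whole table of 54232 genes, by a rule that sets no threshold on their values, and divided by where the encoded protein acts. The mitochondrial part held 20 genes, the peroxisomal part held 14, and 4 genes lay outside both parts (Acot1, which encodes a cytosolic enzyme, and the regulators and cofactor genes Pdk4, Vnn1 and Ppargc1a). Pdk4 encodes a mitochondrial kinase but was grouped with the regulators, so its value is not in the mitochondrial counts and medians below. Among these genes the ketone body enzymes were represented by Bdh1 alone. Whole liver RNA was sequenced from 6 wildtype mice (WT, Marchf6 fl/fl AlbuminCre-) and 6 littermates with hepatocyte deletion of Marchf6 (LKO, Marchf6 fl/fl AlbuminCre+), in which albumin-driven Cre recombinase removes an exon of the gene for an ER-associated E3 ubiquitin ligase in hepatocytes, while the other cells of the liver keep it. All animals were male C57Bl/6J mice, 10 weeks old, kept on chow, and fasted for 4 h. The labels name each liver as a separate mouse, so the spread within a group is a spread between animals.

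Fatty acid oxidation shortens acyl-CoA by removing acetyl-CoA in a repeated cycle of dehydrogenation, hydration, a second dehydrogenation and thiolysis. Mitochondria take up long-chain acyl groups through the carnitine shuttle and pass the electrons to the respiratory chain, whereas peroxisomes begin the shortening of very long and branched chains and hand the shortened products on. The nuclear receptor PPARA, which is activated by fatty acids, is known to raise the transcription of many of these genes in the fasted liver, with peroxisomal enzymes and acyl-CoA thioesterases among its best known targets in rodents.

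Total counts ranged from 14860414 to 22111926 per liver, and the test covered 17509 genes for which 6 or more livers held over 2 reads. The count of the targeted gene, taken over the whole gene, was 226 to 247 CPM (counts scaled to a common library size) in WT livers with a median of 244, and 204 to 249 CPM in LKO livers with a median of 227 (log2 fold change -0.09, SE 0.06). The groups overlapped, and a count over the whole gene does not test the loss of 1 exon in part of the cells. None of the cell type markers had an adjusted p under 0.05. At an unadjusted p under 0.05, 6.33% of all genes tested were higher in LKO livers and 5.36% were lower. Of 6 hepatocyte markers, 5 were lower in LKO livers, 2 of them with an unadjusted p under 0.05. The summed level of the 6 was 82673 to 94313 CPM in LKO against 91062 to 109234 CPM in WT livers. Most of this was Alb, at 64628 to 70334 CPM in LKO and 70269 to 88637 CPM in WT livers. All 10 Kupffer cell markers were higher in LKO livers, 9 with an unadjusted p under 0.05, with sums of 170 to 294 CPM against 139.9 to 190 CPM. Summed stellate cell markers were 101 to 178 CPM against 97.6 to 144 CPM (7 of 7 higher), and endothelial markers 217 to 264 CPM against 204 to 273 CPM (7 of 8 higher). Only 1 gene in each of these 2 lists had an unadjusted p under 0.05. Cholangiocyte markers summed to 34.1 to 129 CPM against 37 to 63.5 CPM, with 3 genes higher and 2 lower. In that sum Spp1 alone reached 114 CPM in an LKO liver, while Sox9 was lower (edgeR unadjusted p = 0.021). B cell markers summed to 1.26 to 2.19 CPM against 0.647 to 1.21 CPM (4 of 4 higher, 3 with an unadjusted p under 0.05), with only 1 or 2 reads per gene in the lowest liver. The part of these shifts in the values below was not tested, and in whole tissue a change in the number of cells of a type cannot be told apart from a change in RNA per cell.

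Loss of hepatocyte Marchf6 was accompanied by no detectable shift in the core mitochondrial enzymes, while the largest log2 fold changes were those of Acot2, Vnn1, Acot3, Pdk4, Abcd2 and Crat, all positive and none with an adjusted p under 0.05, in genes that varied widely between animals. All 38 genes were tested, each with at least 10 reads in every liver. With edgeR's quasi-likelihood test none of the 38 had an adjusted p under 0.05, against 0.428% of all genes tested, and in none did the 6 LKO livers lie wholly above or below the 6 WT livers, against 1.3% of all genes. At an unadjusted p under 0.05 there were 10 members, against 11.7% of all genes. Of these, 9 were higher in LKO livers, where 6.33% of all genes passed in that direction, and 1 was lower, where 5.36% passed. By part, these were 2 of 20 mitochondrial genes, 6 of 14 peroxisomal genes and 2 of the 4 others. The median log2 fold change was 0.01 over the mitochondrial genes, 0.24 over the peroxisomal genes and 0.000165 over all genes tested. These counts and medians describe the chosen genes and carry no test of the list.

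**Figure D1:**
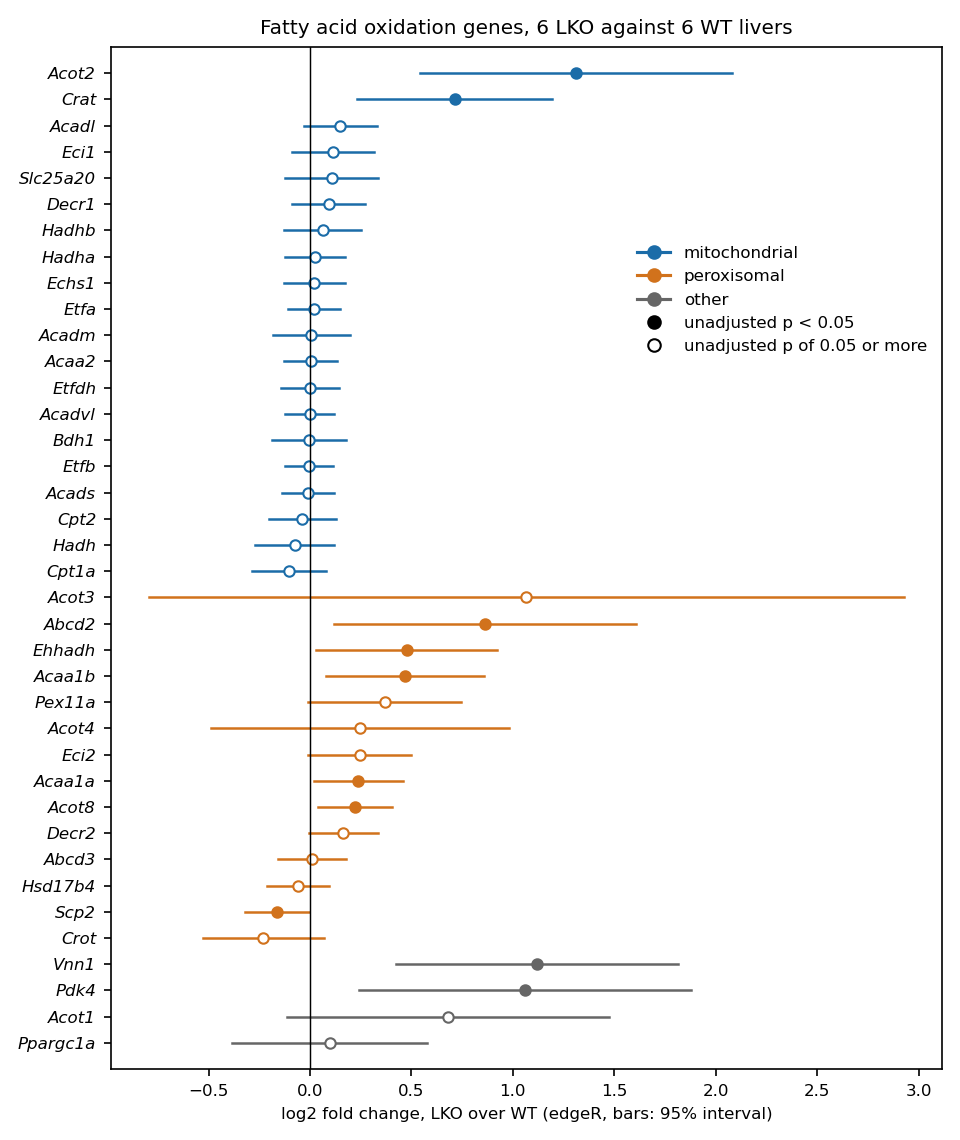
Log2 fold change of each of the 38 genes in 6 LKO over 6 WT livers (x axis, edgeR) with its 95% interval as a bar, coloured by part and filled where the unadjusted p was under 0.05. The mitochondrial genes from Acadl down to Cpt1a lie between 0.15 and -0.10, whereas Acot2, Vnn1, Acot3 and Pdk4 lie above 1.

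Within the mitochondrial beta-oxidation cycle, the 9 genes had log2 fold changes between -0.08 and 0.15, with standard errors of 0.06 to 0.09 and no unadjusted p under 0.05. Acaa2, the thiolase that closes the cycle, had the second highest level per transcript length of all 38 genes (516 CPM per kb in WT and 517 CPM per kb in LKO). Its CPM was 737 to 861 in WT livers with a median of 772, and 722 to 834 in LKO livers with a median of 782. The ranges coincided almost entirely, and the log2 fold change was 0.00 (95% interval -0.13 to 0.13).

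The acyl-CoA dehydrogenases for successive chain lengths gave similar pictures. Acadvl, for very long chains, was at 154 to 174 CPM in both groups, with medians of 169 in WT and 168 in LKO livers, and 24% of its transcript windows also occur in Dvl2, which overlaps it on the opposite strand. Acadm, for medium chains, ran from 267 to 351 CPM in WT and from 262 to 360 CPM in LKO livers, with a log2 fold change of 0.01 (95% interval -0.18 to 0.20). Acads, for short chains, had a log2 fold change of -0.01 (95% interval -0.14 to 0.12). Acadl, for long chains, had the largest value of the cycle at 0.15, and its interval of -0.03 to 0.33 also included 0 (edgeR, unadjusted p = 0.0962), while without WT replicate 3 it was 0.21 (edgeR unadjusted p = 0.0119, adjusted p = 0.233). The groups overlapped for every dehydrogenase.

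The later steps of the cycle are carried by Echs1, a hydratase for shorter chains, by Hadh, a dehydrogenase for shorter chains, and by the trifunctional protein subunits Hadha and Hadhb. Their log2 fold changes were 0.02, -0.08, 0.02 and 0.06. Hadha, with 346 to 439 CPM in WT and 373 to 441 CPM in LKO livers, stood well above Hadhb, with 55.3 to 76.9 CPM and 61.5 to 78.8 CPM. Of the 50-nt windows of the Hadhb transcript, 62.4% also occur in transcripts of other genes, mainly the predicted gene Gm13910. How the counting treated reads with more than 1 match is not given in the sources used here, and its part in the gap between the subunits was not tested.

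Electrons from the dehydrogenases pass through the flavoprotein subunits Etfa and Etfb to its oxidoreductase Etfdh. These 3 genes had log2 fold changes of 0.02, 0.00 and 0.00. The Etfa level was 273 to 325 CPM in WT livers with a median of 296, and 277 to 314 CPM in LKO livers with a median of 305. Per length, Etfa was at 213 CPM per kb in WT, close to Crot at 223 CPM per kb. Etfb was at 51.7 to 58.3 CPM in WT and 49.98 to 58.2 CPM in LKO livers, the narrowest spread of any member (0.07 SD on the log2 scale within groups), but 67.3% of its transcript windows are shared with the overlapping gene Gm45233, so its level is uncertain. Together with the cycle these were 12 genes, and their 95% intervals had a lowest bound of -0.27 (Hadh) and a highest of 0.33 (Acadl) on the log2 scale. Each interval gives the sizes of change that its own gene leaves possible. It is not a limit of detection for the adjusted test.

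In the carnitine shuttle, Cpt1a, the outer-membrane acyltransferase that controls entry, was at 612 to 827 CPM in WT with a median of 694, and at 588 to 723 CPM in LKO livers with a median of 660. The groups overlapped, with a log2 fold change of -0.10 (95% interval -0.29 to 0.08, edgeR unadjusted p = 0.242). The carrier Slc25a20 and the inner-membrane enzyme Cpt2 had log2 fold changes of 0.11 and -0.04. Crot, which prepares shortened acyl groups for export from peroxisomes, had the lowest log2 fold change of all members at -0.23 (95% interval -0.53 to 0.07, edgeR unadjusted p = 0.123), from 504 to 830 CPM in WT and 421 to 732 CPM in LKO livers.

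Crat, the carnitine acetyltransferase that buffers acetyl-CoA, differed from the other shuttle genes. Its CPM ran from 27.1 to 67.9 in WT livers with a median of 41.2, and from 52.9 to 94.2 in LKO livers with a median of 68.1. All 6 LKO livers lay above the WT median and 3 lay above the highest WT liver. The log2 fold change was 0.71 (SE 0.23, edgeR unadjusted p = 0.00649, adjusted p = 0.215), a difference that did not pass the test over all genes.

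The auxiliary enzymes that rearrange double bonds in unsaturated acyl-CoA gave values on the same side of 0 in all 4 genes without an unadjusted p under 0.05. The mitochondrial Eci1 and Decr1 had log2 fold changes of 0.11 and 0.09. The peroxisomal Eci2 and Decr2 had 0.24 and 0.17, with edgeR unadjusted p of 0.0575 and 0.059. Eci2 ran from 127 to 213 CPM in WT and from 182 to 245 CPM in LKO livers, so the groups overlapped. Bdh1, which interconverts the ketone bodies acetoacetate and beta-hydroxybutyrate, was at 169 to 219.98 CPM in WT and 155 to 215 CPM in LKO livers, with medians of 195 and 198 and a log2 fold change of 0.00 (95% interval -0.19 to 0.18).

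The peroxisomal genes were more divided. Scp2, which encodes a sterol carrier and peroxisomal thiolase, had by far the highest level per length (1173 CPM per kb in WT, 1048 CPM per kb in LKO). It was the only member with an unadjusted p under 0.05 that was lower in LKO livers, at 2585 to 3096 CPM with a median of 2728, against 2839 to 3453 CPM with a median of 2962 in WT. The groups overlapped and the log2 fold change was -0.16 (SE 0.07, edgeR unadjusted p = 0.0451, adjusted p = 0.412). With no filter on low counts, or with at least 10 reads asked for in every liver, Scp2 no longer had an unadjusted p under 0.05. All members that did were higher, 13 and 10 of them, against 8.69% and 13.5% of all genes in either direction. Of the Scp2 transcript, 41.4% of windows also occur elsewhere, mainly in the pseudogene Scp2-ps2.

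The enzymes of the peroxisomal cycle were higher in part. Ehhadh, the bifunctional enzyme that performs hydration and dehydrogenation, ran from 248 to 435 CPM in WT livers with a median of 304, and from 309 to 756 CPM in LKO livers with a median of 394. A single LKO liver, replicate 1, was far above the rest. The log2 fold change was 0.48 (SE 0.21, edgeR unadjusted p = 0.0382), and it was 0.26 with an unadjusted p of 0.128 when that liver was left out. Hsd17b4, the second bifunctional enzyme, had a log2 fold change of -0.06 (95% interval -0.21 to 0.10), with 422 to 509 CPM in WT and 391 to 488 CPM in LKO livers.

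The paired peroxisomal thiolases Acaa1a and Acaa1b were both higher in LKO livers. Acaa1a ran from 117 to 164 CPM in WT with a median of 134, and from 143 to 209 CPM in LKO livers with a median of 154 (log2 fold change 0.24, edgeR unadjusted p = 0.0353). Acaa1b ran from 265 to 458 CPM in WT with a median of 299.9, and from 293 to 579.9 CPM in LKO livers with a median of 472 (log2 fold change 0.47, edgeR unadjusted p = 0.0221). The adjusted p was 0.378 and 0.324. The genes lie on chromosome 9 of GRCm38 (Acaa1a at 119339676 to 119350299 on the plus strand, Acaa1b at 119148023 to 119157093 on the minus strand) and have coding sequences that are 96.5% identical, and 35.1% of the Acaa1a windows and 46.2% of the Acaa1b windows occur in other genes, mostly in each other, so a part of their reads cannot be assigned to one of them. The first 120 coding bases of both genes show how near they are, with the 4 differing bases in capitals (transcript sequence of GENCODE M21, GRCm38, 5′ to 3′).
Acaa1a: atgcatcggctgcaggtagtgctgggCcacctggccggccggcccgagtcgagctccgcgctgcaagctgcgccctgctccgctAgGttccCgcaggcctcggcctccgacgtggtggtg
Acaa1b: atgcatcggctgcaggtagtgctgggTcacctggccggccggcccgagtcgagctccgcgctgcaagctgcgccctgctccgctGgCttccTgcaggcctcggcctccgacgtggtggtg
Most of the coding bases that tell the genes apart lie further along, and reads shared between them were not resolved here.

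Transport into the peroxisome and its proliferation were represented by Abcd2, Abcd3 and Pex11a. Abcd2, a transporter of very long-chain acyl-CoA, was low in liver, at 2.62 to 13.1 CPM in WT with a median of 5.14 and at 5.97 to 21.2 CPM in LKO livers with a median of 9.72. The highest liver of each group, WT replicate 3 and LKO replicate 5, stood apart from the other 5. The log2 fold change was 0.86 (SE 0.35, edgeR unadjusted p = 0.0258, adjusted p = 0.338), and it was 0.55 with an unadjusted p of 0.0972 without LKO replicate 5. Without WT replicate 3 it was 1.25 (edgeR unadjusted p = 0.000945, adjusted p = 0.0861). Abcd3, the abundant transporter of the same family at 203 CPM per kb in WT, had a log2 fold change of 0.01 (95% interval -0.16 to 0.18). Pex11a, which promotes peroxisome division, had a log2 fold change of 0.37 (95% interval -0.01 to 0.75, edgeR unadjusted p = 0.0551).

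The acyl-CoA thioesterases release free fatty acid and CoA from acyl-CoA, and 4 of them lie in a cluster of related genes on chromosome 12 (Acot1 to Acot4, encoding cytosolic, mitochondrial and peroxisomal forms). Their coding sequences are 66.7% (Acot2 and Acot4) to 85.6% (Acot1 and Acot2) identical over all columns of a pairwise alignment. Gap columns count as differences in these shares, so the aligned bases alone are more alike. Acot2, the mitochondrial form, had the largest log2 fold change of the 38 genes. It was at 2.15 to 6.86 CPM in WT livers with a median of 2.43, and at 4.22 to 15 CPM in LKO livers with a median of 6.5. All 6 LKO livers lay above the WT median and 3 above the highest WT liver, which was replicate 3. The log2 fold change was 1.31 (SE 0.36, 95% interval 0.54 to 2.08, edgeR unadjusted p = 0.00254, adjusted p = 0.142). This gene was called with DESeq2 (adjusted p = 0.0177), without WT replicate 3 (edgeR adjusted p = 0.0341), and without WT replicate 3 and LKO replicate 5 together (edgeR adjusted p = 0.0449), and by none of the other alternatives.

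The coding sequences of Acot1 (chromosome 12, 84009490 to 84018371) and Acot2 (chromosome 12, 83987861 to 83993873, both on the plus strand) hold 1257 and 1359 bases. Of their 1380 alignment columns, 1181 are identical (85.6%, with gaps counted as differences). In other genes occur 33.7% of the Acot1 windows and 27.7% of the Acot2 windows. A stretch of 120 coding bases, from base 358 of Acot1 and from base 481 of Acot2, is shown with its 4 differing bases in capitals (GENCODE M21, GRCm38, 5′ to 3′), because reads inside it match both genes almost equally well.
Acot1: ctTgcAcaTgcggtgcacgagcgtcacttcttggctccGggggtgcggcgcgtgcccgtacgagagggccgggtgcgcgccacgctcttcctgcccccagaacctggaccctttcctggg
Acot2: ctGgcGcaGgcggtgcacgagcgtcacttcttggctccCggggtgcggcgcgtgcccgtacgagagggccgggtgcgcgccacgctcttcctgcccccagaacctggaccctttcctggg
Acot1 had a log2 fold change of 0.68 (95% interval -0.11 to 1.47, edgeR unadjusted p = 0.0874), with 10.6 to 49.4 CPM in WT and 17.4 to 61.6 CPM in LKO livers. It was 1.13 without WT replicate 3 (edgeR unadjusted p = 0.0022) and 0.42 without LKO replicate 5. The LKO livers lay within or just above the WT range, with medians of 15.3 CPM in WT and 31.7 CPM in LKO.

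Acot3 and Acot4 varied more between livers than between groups. Of their transcript windows, 21.7% and 14.4% also occur in other genes, most often the overlapping genes Gm49366 for Acot3 and 4732463B04Rik for Acot4. Acot3 was at 0.691 to 1.74 CPM in 4 WT livers, at 3.41 CPM in replicate 2 and at 20.96 CPM in replicate 3, while in LKO livers it ran from 1.5 to 36.4 CPM with a median of 5.03. Its log2 fold change of 1.07 had a 95% interval of -0.80 to 2.93 and was -0.07 without LKO replicate 5 and 2.68 without WT replicate 3. Acot4 had a log2 fold change of 0.25 (95% interval -0.49 to 0.98), with 135 CPM in WT replicate 3 and 119 CPM in LKO replicate 5 as the highest livers. The value was 0.67 without WT replicate 3 (edgeR unadjusted p = 0.0216), 0.03 without LKO replicate 5, and 0.12 and 0.11 without WT replicates 1 and 5. Acot8, which encodes a peroxisomal thioesterase outside the cluster, differed by little. Of its transcript windows, 17.7% also occur in the overlapping gene Snx21 on the opposite strand. It ran from 9.59 to 10.8 CPM in WT with a median of 10.4, and from 10.4 to 14.5 CPM in LKO livers with a median of 11.9, and 5 of 6 LKO livers lay above the highest WT liver (log2 fold change 0.22, SE 0.09, edgeR unadjusted p = 0.0206, adjusted p = 0.319).

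The genes outside both parts included 2 of the largest values. Vnn1, which encodes a pantetheinase of the CoA recycling route, was at 11.6 to 43.5 CPM in WT with a median of 19.9 and at 30.3 to 96.2 CPM in LKO livers with a median of 39.99. All 6 LKO livers lay above the WT median, and the groups overlapped through WT replicate 3. The log2 fold change was 1.12 (SE 0.32, edgeR unadjusted p = 0.00372, adjusted p = 0.168). Pdk4, the kinase that shuts off pyruvate dehydrogenase when fat is burned, was at 2.25 to 6.15 CPM in WT with a median of 5.26 and at 4.49 to 25 CPM in LKO livers with a median of 7.54. LKO replicate 1 held the highest value, the other 5 LKO livers lay at 4.49 to 9.25 CPM, and the log2 fold change was 1.06 (SE 0.38, edgeR unadjusted p = 0.0147, adjusted p = 0.279). Without that liver it was 0.52 with an unadjusted p of 0.0513. Ppargc1a, a transcriptional coactivator of oxidative genes, had a log2 fold change of 0.10 (95% interval -0.39 to 0.58).

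**Figure D2:**
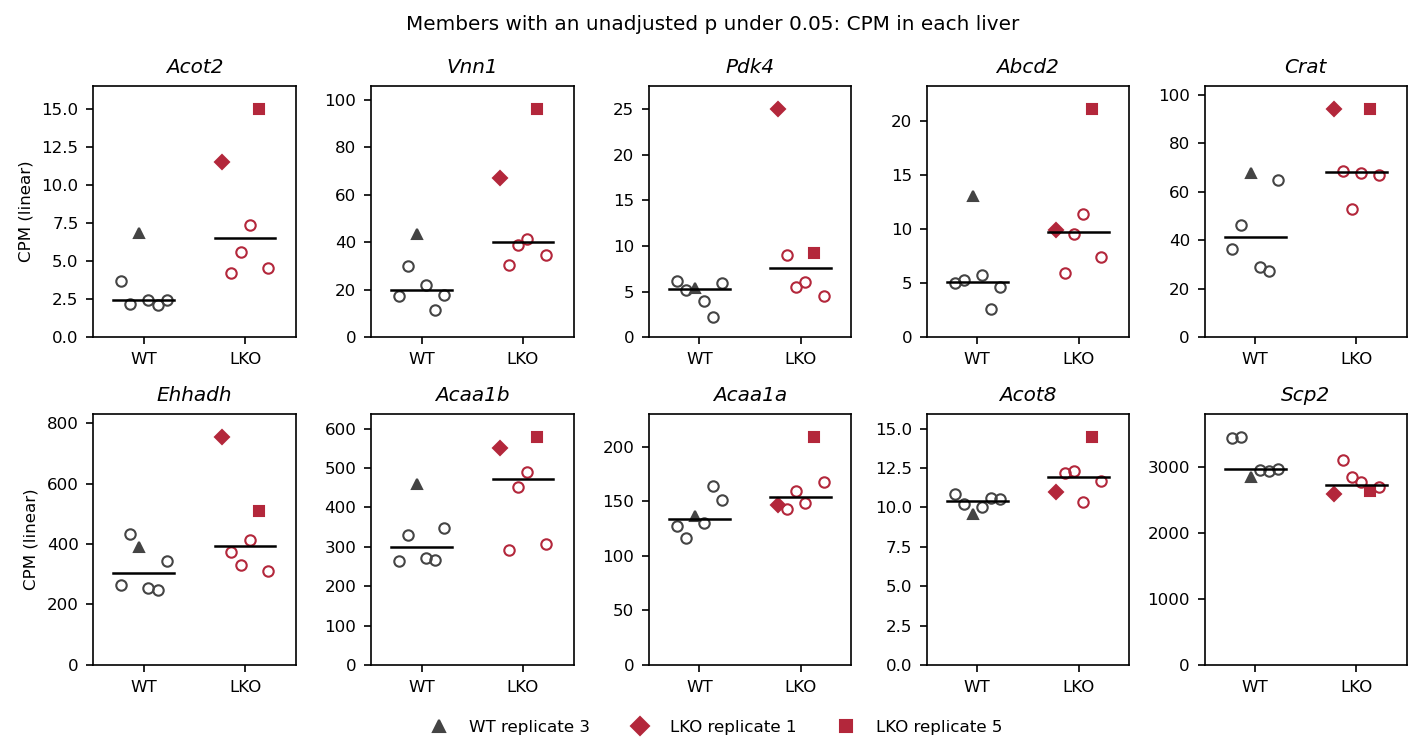
CPM on linear axes from 0 in each of the 6 WT (grey) and 6 LKO (red) livers for the 10 members with an unadjusted p under 0.05, with the group median as a line. WT replicate 3, LKO replicate 1 and LKO replicate 5 have their own symbols. LKO replicate 5 is highest for Acot2, Vnn1 and Abcd2, LKO replicate 1 is highest for Pdk4 and Ehhadh, and the groups overlap in every panel.

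Single livers held the highest or lowest value for many of the 38 genes. LKO replicate 5 was the highest of 12 livers for 20 of the 38 genes and WT replicate 3 for 9, and within their own groups they were highest for 25 and 26. WT replicate 5 was the lowest of 12 livers for 11 genes. For the median peroxisomal gene, log2 CPM in LKO replicate 5 was 0.44 above and in WT replicate 3 0.20 above the mean of 12 livers, against 0.14 in both for the median mitochondrial gene. WT replicate 3 was high for Acot2, Vnn1 and Abcd2 in the same way as LKO replicate 5, although its label is wildtype. The within-group SD on the log2 scale ran from 0.07 for Etfb to 1.74 for Acot3.

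**Figure D3:**
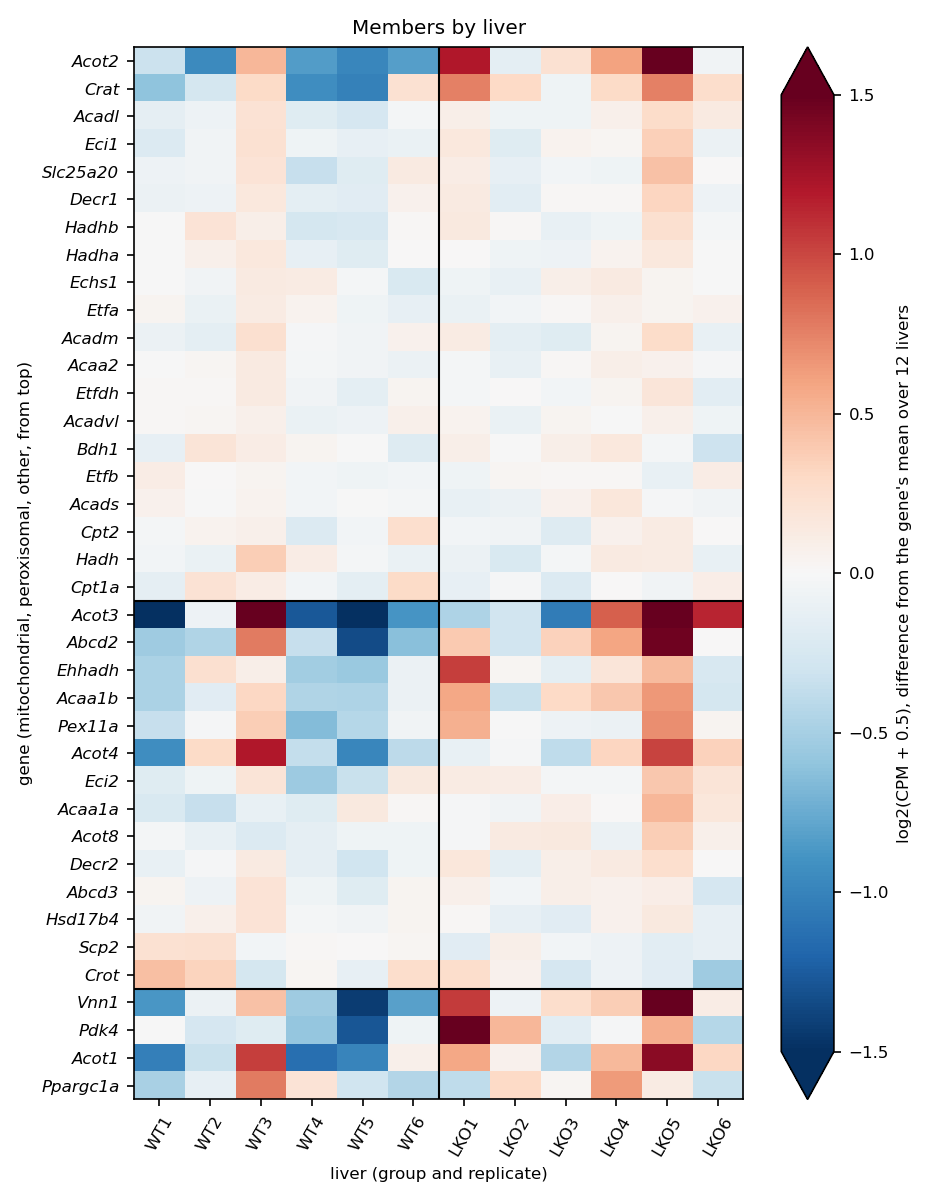
Each row is a gene and each column a liver, with colour giving log2(CPM + 0.5) relative to the gene's mean over 12 livers. Core mitochondrial rows stay pale across both groups, while the rows of Acot1 to Acot4, Abcd2 and Vnn1 are red in WT3 and LKO5.

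The number of members with an unadjusted p under 0.05 followed these livers. It was 10 of 38 with all livers, 17 without WT replicate 3, where 12.6% of all genes passed, and 4 without LKO replicate 5, where 10.1% of all genes passed, so that without LKO replicate 5 the share of members was near that of all genes. Only Acot2, Crat and Vnn1 kept an unadjusted p under 0.05 whichever of the 12 livers was left out. For the peroxisomal genes alone it was 6, 11 and 0, and it was 3 without WT replicate 1 (against 10.7% of all genes). Leaving out WT replicate 3 and LKO replicate 5 together gave 13 members (against 10.9% of all genes), 7 of them peroxisomal, with a peroxisomal median log2 fold change of 0.21. For the mitochondrial genes the number stayed at 2, except for 3 in the fits without WT replicate 3, where Acadl was added.

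**Figure D4:**
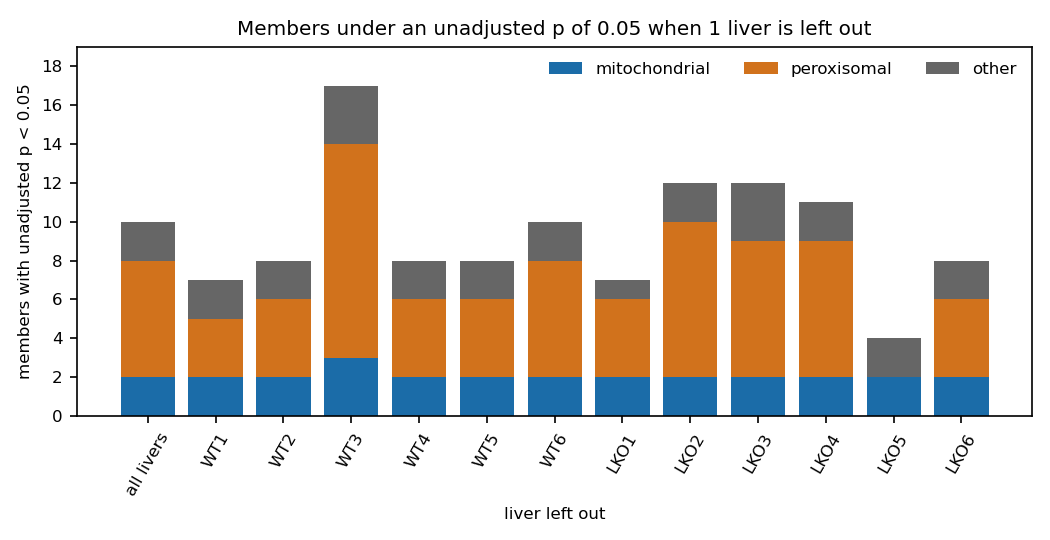
Number of members with an unadjusted p under 0.05 (y axis) with all livers and with each of the 12 livers left out in turn (x axis), stacked by part. The bar is tallest at 17 without WT3 and shortest at 4 without LKO5.

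The livers also differed in clock genes, whose levels depend on the hour of collection and on feeding. Per3 was at 5.11 to 10.3 CPM in replicates 1 and 2 of both groups and at 21.3 to 47.7 CPM in replicates 3 to 6 of both groups, so the split was balanced between genotypes. It is not a batch named in the labels, and it was drawn after the data were seen. With a term for it, 11 members had an unadjusted p under 0.05 (against 14.2% of all genes) and none an adjusted p under 0.05. Within the 4 WT and 4 LKO livers with high Per3, 6 members had an unadjusted p under 0.05 (against 10.5% of all genes) and the peroxisomal median log2 fold change was 0.26. Within the 2 and 2 livers with low Per3 these values were 5 members (against 4.94% of all genes) and 0.19. None of the 14 clock genes and none of the 10 fasting-responsive genes had an unadjusted p under 0.05 between genotypes.

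Other genes of the pathway were read from lists of related genes. Of 23 further fatty acid oxidation and ketone body genes, none had an adjusted p under 0.05, and their median log2 fold change was -0.02. An unadjusted p under 0.05 was found for 2 of them, against 11.7% of all genes in either direction. Both were lower in LKO livers, and 5.36% of all genes passed in that direction. These were Amacr, a racemase for branched-chain acyl-CoA (log2 fold change -0.19), and Bdh2, a short-chain dehydrogenase (-0.35), which with Cpt1b (-0.26) also held the lowest values of the list. The highest were Oxct1, the enzyme of ketone body use (0.19), and Nudt19, a CoA diphosphatase (0.15). Amacr was chosen after its value was seen.

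Of 15 tested genes related to PPARA, none had an adjusted p under 0.05. At an unadjusted p under 0.05, 3 were higher and 3 lower, which 6.33% and 5.36% of all genes reached in these directions. The list was broad and also held Acaca and Acacb, which encode acetyl-CoA carboxylases and not enzymes of fatty acid oxidation. Its counts are therefore not counts of PPARA targets. Ppara itself was at 129 to 186 CPM in WT with a median of 173 and at 136 to 161 CPM in LKO livers with a median of 141 (log2 fold change -0.21, SE 0.08, edgeR unadjusted p = 0.0222, adjusted p = 0.324). Its partner Rxra had a log2 fold change of -0.20. The largest values were those of the fatty acid omega-hydroxylases Cyp4a14 (1.60, edgeR unadjusted p = 0.0616) and Cyp4a10 (0.93, edgeR unadjusted p = 0.04995). Cyp4a14 was thus not among the 6 under an unadjusted p of 0.05. Cyp4a14 ran from 22.95 to 691 CPM in WT and from 176 to 1448 CPM in LKO livers, with the highest values again in WT replicate 3 and LKO replicate 5. Besides Ppara, Rxra and Cyp4a10, the 6 held Acacb, Ucp2 and Creb3l3, which were named after their values were seen. Their log2 fold changes were 0.63, 0.33 and -0.16.

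Of 17 genes of peroxisome biogenesis and content, none had an adjusted p under 0.05 and 3 were lower at an unadjusted p under 0.05 (against 5.36% of all genes), with a median log2 fold change of -0.01. Pex11g had a log2 fold change of -0.21 (edgeR unadjusted p = 0.0108, adjusted p = 0.249). All 6 LKO livers (15.7 to 17.4 CPM) lay below all 6 WT livers (17.7 to 21.8 CPM) for this gene. Such a separation, in either direction, was found in 1.3% of all genes. The highest of the list were Pex16 (0.12) and Pex3 (0.09).

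Promoter sequence was compared with the DR1 element to which PPARA and its partner bind, searched as AGGTCA, any 1 base and AGGTCA again on both strands with up to 2 mismatches, from 250 bases before to 50 bases after the RefSeq start site. A match was found in 4 of the 32 members with a promoter entry (12.5%) and in 4.4% of 27025 genes. The matching members were Echs1, Etfa, Slc25a20 and Acot4, none of which had an unadjusted p under 0.05. Matches upstream of the start site are shown in capitals with their flanks (RefSeq promoters, GRCm38.p6, written 5′ to 3′ on the strand of the gene), because they show where in a promoter the letters occur.
Echs1 (chr7:140116472-140116524, minus strand): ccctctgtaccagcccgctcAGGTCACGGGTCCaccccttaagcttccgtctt
Etfa (chr9:55512288-55512340, minus strand): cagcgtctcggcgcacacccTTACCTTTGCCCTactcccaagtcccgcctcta
Acot4 (chr12:84038346-84038378, plus strand): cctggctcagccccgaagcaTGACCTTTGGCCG
The Etfa and Acot4 matches read on the opposite strand, and the match of Slc25a20 lay at bases 7 to 19 after the start site. These windows cover only the region next to the start site, and no binding was measured.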

How the data were processed

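Liver mRNA libraries from 12 mice (KAPA mRNA HyperPrep, HiSeq4000) were processed by the authors, who deposited raw read counts per Ensembl gene. Their processing notes name FastQC 0.11.15, Picard, Trimmomatic 0.36, HISAT2 2.1.0, HTSeq 0.6.1, Cufflinks, edgeR and limma, with genome build GRCm38.p6. The strand setting of the counting is not given in the sources used here, so reads of genes that overlap in opposite directions cannot be told apart. Symbols and coordinates came from GENCODE M21 (GRCm38), which gave an entry for all 38 genes.

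Counts were tested with edgeR 4.0.16 (quasi-likelihood, TMM, R 4.3.3) in genes for which 6 or more livers held over 2 reads, and p-values were adjusted by Benjamini-Hochberg over every tested gene (threshold 0.05). SEs are the fold change divided by the square root of F, and intervals are 95%. CPM used TMM library sizes, and levels per kb used the length of the main transcript. Scripts were tested on simulated data. Intervals of the fit cover the spread between mice, and precision did not follow counts alone. Etfb had an SE of 0.06 with 778 reads in its lowest liver, and Ehhadh an SE of 0.21 with 3787. Alternatives were limma 3.58.1 voom, DESeq2 1.42.0, other filters and scaling, a replicate block, leaving out livers and a split by Per3 at 15 CPM. The last, the joint omission of 2 livers and the counts at an unadjusted p were added after seeing the data.

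The members and gene lists were chosen with earlier results of these data known. Named members were those with an adjusted or unadjusted p under 0.05, those without overlap, the 5 highest per length and 1 or 2 per role, and related genes were the 2 highest and 2 lowest of a list, those with an adjusted p under 0.05, Ppara and the targeted gene. A hepatocyte marker, Tf, had no symbol match. No column of another series was present. A gene that this rule would name is not reported here.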

Additional observations from a re-analysis of the deposited data

Results flagged for a closer look

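The highest WT liver for Eci1, replicate 3 at 113 CPM, stood apart from the other 5 WT livers, with a gap to the nearest of 0.653 of the whole range on the log2 scale. It was the only one of 76 groups of 6 livers (38 genes in WT and in LKO) in which an end liver lay beyond Dixon's limit, and chance alone finds about 1 in 20, or 3.8 here.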

How the results depend on the processing

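With all livers 75 genes and 0 of the 38 members had an adjusted p under 0.05 (edgeR), with 10 members under an unadjusted p of 0.05. No filter gave 114 genes, DESeq2 350 and the clock term 170, and the livers with high and low Per3 alone 28 and 0 genes (865 at an unadjusted p under 0.05 in the latter). DESeq2 called 1 member, Acot2, which is mitochondrial. Within the livers with high Per3, 6 members had an unadjusted p under 0.05 (against 10.5% of all genes), 4 of them peroxisomal. Within those with low Per3 there were 5 members (against 4.94% of all genes), 0 of them peroxisomal. Both fits had fewer animals. Leaving out livers gave 38 to 132 genes, 0 to 1 member, 0 to 1 mitochondrial and 0 peroxisomal members with an adjusted p under 0.05. Under an unadjusted p of 0.05 there were 4 to 17 members, 2 to 3 mitochondrial and 0 to 11 peroxisomal members, against 10% to 12.6% of all genes. The 132 came without WT replicate 3 and the 38 without WT replicate 5. The peroxisomal median log2 fold change stayed between 0.14 and 0.27 when a liver was left out.

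Same-numbered livers did not deviate together in every pair (correlations of -0.06 to 0.14, 2 of 6 WT livers correlating best with their own number), so the numbers were not taken as pairs. With the replicate block 97 genes, 0 members by adjusted p and 11 members by unadjusted p (against 13.3% of all genes) were counted, and the call of no member changed.

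Of 874 alternative log2 fold changes of single members, 792 kept their direction and side of the threshold, 3 (all Acot2, at 1.29 with DESeq2, 1.67 without WT replicate 3 and 1.38 without that liver and LKO replicate 5) passed it, and 79 in 15 members changed sign. The cause was not tested. With DESeq2 the changed values were -0.00097 for Acaa2 and -0.0023 for Etfdh, and with RLE scaling -0.0010 and -0.0025. Etfdh was at -0.00076 with limma voom and -0.00028 with the replicate block. With at least 10 reads in every liver, Acadvl was at 0.0069, Etfb at 0.0055 and Bdh1 at 0.0059. With no filter, Acadvl was at 0.015, Acads at 0.0071, Etfb at 0.013 and Bdh1 at 0.012. In the livers with high Per3, Acadvl was at 0.022, Acadm at -0.0400, Acads at 0.052 and Etfb at 0.038. In those with low Per3, Echs1 was at -0.052, Hadha at -0.061, Hadhb at -0.016, Acaa2 at -0.079, Etfa at -0.039, Etfdh at -0.029 and Bdh1 at 0.0020. When livers were left out, Cpt2 ranged from -0.079 to 0.013, Acadvl from -0.022 to 0.019, Acadm from -0.053 to 0.059, Acads from -0.047 to 0.012, Echs1 from -0.021 to 0.0497, Hadha from -0.0095 to 0.058, Acaa2 from -0.015 to 0.031, Etfa from -0.0027 to 0.047, Etfb from -0.026 to 0.025, Etfdh from -0.038 to 0.031, Abcd3 from -0.023 to 0.058, Bdh1 from -0.0400 to 0.053, Ppargc1a from -0.041 to 0.32 and Acot3 from -0.071 to 2.68.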
